A study of Mus musculus with 20 samples.

Results

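The genes described here are the p53 family members Trp63 and Trp73 and 7 genes that p53 is known to switch on, namely Mdm2, Ccng1, Cdkn1a, Perp, Btg2, Sesn2 and Gadd45a. They were chosen by symbol: a probe belongs to the set where the platform annotation gives it 1 gene symbol and that symbol is on a list of 10 genes. This found 9 genes, with 1 probe each, among 22575 probes that name 16504 genes. Trp53 itself, the gene of p53, is on the list too and is not analysed here.

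p53 is a transcription factor that is held at a low level by the ubiquitin ligase Mdm2 and accumulates when DNA is damaged or a cell is otherwise stressed. It then raises transcription of genes that stop the cell cycle, repair DNA, damp oxidative stress or start apoptosis, and of Mdm2 itself, which closes a feedback loop. Its relatives p63 and p73 bind the same kind of DNA motif; p63 is best known from epithelia, and p73 is known in developing brain from Cajal-Retzius neurons and from the multiciliated ependyma. In the fetal cortex p53 is known for its part in the death of neural progenitors after damage.

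The study compared mouse cerebral cortex exposed to cocaine before birth with cortex exposed to saline, on 20 Agilent arrays of 2 colours. Pregnant Swiss Webster dams were given cocaine hydrochloride subcutaneously at 20 mg/kg, 2 times a day over embryonic days 8 to 18, while pair-fed control dams had saline on that schedule. The 4 groups of 5 arrays are fetal frontal and fetal occipital cerebral wall, taken on embryonic day 18, 1 h after an injection, with 2 cocaine and 2 saline fetuses behind each array, and adult frontal and adult occipital cortex of offspring on postnatal day 30. Dissection of the cerebral wall took the cortex together with the transient zones beneath it, and per the labels each slide of a region drew on its own litters. Per the labels, exposure was before birth in the adult groups too. In bulk tissue such as this, fewer cells of a type and less RNA per cell cannot be told apart.

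Each value below is the log2 ratio of cocaine over saline of 1 probe on 1 array, relative to that array's median, so that 1 unit is a doubling and 0 is the ratio of the median probe. Channel 1 holds cocaine and channel 2 saline per the labels; this direction is likely and not stated, no dye swap is labelled, and a fixed difference between the dyes cannot be told apart from treatment in a group mean. Ratios carry no level, so neither the labelled tissue nor the rank of the genes by abundance could be checked. Of the arrays, fetal frontal replicate 1 lists both dyes for channel 1, and 2 fetal occipital arrays share a title number and are called 1 and 1b; the titles do not say whether this pair came from separate litters, so n = 5 in that group rests on the general statement above. On all 20 arrays the ratio rose with a brightness score of the probe, which was itself derived from the deposited ratios. The Spearman correlation across probes ran from 0.0264 on fetal occipital replicate 1 to 0.700 on adult occipital replicate 2. Probes are called bright or dim below by this score alone, since no measured intensity was at hand. A smooth trend over the position on the slide accounted for 2.72% of the variance on adult frontal replicate 2 and 45.9% on fetal occipital replicate 1b. This position was inferred from the probe number, with a row length settled from the values. Group means were tested against 0, and against each other, in a limma model over all 20 arrays; "rose" and "fell" below mean a Benjamini-Hochberg adjusted p under 0.05 over all 22567 probes kept.

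Promoter sequence was at hand in RefSeq (GRCm38.p6) for 7 of the 9 genes, as 9 windows of 300 bases that run from 250 bases before a transcription start to 50 after it. They were searched for the DNA motif that p53 binds, and those that hold it are printed. The p53 half-site, the motif that a pair of p53 molecules reads and that is the same on both strands, occurred in 4 of the 9 windows, each of a different gene. Of all 32851 windows at hand, 8.36% held it. The 4 windows are given from 5′ to 3′ on the strand of the gene with the half-site in capitals. The Cdkn1a window (chr17:29090729-29091028, plus strand) holds 2, which begin 73 and 51 bases before the start. In the windows of Gadd45a (chr6:67037358-67037657), Mdm2 (chr10:117710709-117711008) and Ccng1 (chr11:40755237-40755536), all on the minus strand, the half-site begins 40, 186 and 185 bases before the start.
Cdkn1a: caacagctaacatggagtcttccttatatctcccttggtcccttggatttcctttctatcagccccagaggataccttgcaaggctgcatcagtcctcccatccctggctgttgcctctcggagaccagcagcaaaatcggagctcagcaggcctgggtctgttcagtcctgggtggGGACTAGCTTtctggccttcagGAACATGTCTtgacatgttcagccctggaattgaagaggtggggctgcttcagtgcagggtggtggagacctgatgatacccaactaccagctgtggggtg
Gadd45a: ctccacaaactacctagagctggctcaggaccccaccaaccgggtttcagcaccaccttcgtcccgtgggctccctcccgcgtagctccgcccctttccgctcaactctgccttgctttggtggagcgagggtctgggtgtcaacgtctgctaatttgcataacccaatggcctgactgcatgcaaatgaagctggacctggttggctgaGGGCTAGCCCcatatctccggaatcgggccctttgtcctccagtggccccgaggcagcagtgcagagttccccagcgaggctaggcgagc
Mdm2: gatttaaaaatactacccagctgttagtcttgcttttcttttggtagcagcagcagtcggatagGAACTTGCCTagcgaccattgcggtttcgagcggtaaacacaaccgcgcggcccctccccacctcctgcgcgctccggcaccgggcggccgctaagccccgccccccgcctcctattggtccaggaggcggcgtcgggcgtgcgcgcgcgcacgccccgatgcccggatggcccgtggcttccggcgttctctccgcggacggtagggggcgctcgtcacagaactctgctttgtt
Ccng1: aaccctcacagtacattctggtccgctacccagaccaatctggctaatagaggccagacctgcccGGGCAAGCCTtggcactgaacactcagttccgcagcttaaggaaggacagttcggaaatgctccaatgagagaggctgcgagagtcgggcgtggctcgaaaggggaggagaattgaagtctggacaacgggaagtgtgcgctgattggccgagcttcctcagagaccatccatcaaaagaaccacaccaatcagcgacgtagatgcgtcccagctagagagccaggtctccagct
Btg2 and Sesn2 had 1 window each and Trp73 had 2, and a second Cdkn1a window was matched; these 5 windows held no half-site. The GC box GGGCGG, or its complement CCGCCC, was in 6 of the 9 windows against 35.7% of all windows, among them those of Mdm2 and Gadd45a above, and it overlaps none of the capitals. A match describes these letters and is not evidence of binding.

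Across the 9 genes, 5 probes passed the test in fetal frontal cortex, 3 higher and 2 lower. In that comparison 18.7% of all probes passed higher and 18.4% lower. In fetal occipital cortex 1 gene rose and 2 fell, where 10.5% of all probes were higher and 14.2% lower. For adult frontal cortex 4 rose and 1 fell, where the shares were 26.8% and 29.4%, and in adult occipital cortex 3 rose and 1 fell, where both shares were 24.1%. The median log2 ratio of the 9 genes was 0.11, -0.67, 0.54 and 0.31 in the order just given, and the median of all probes -0.04, -0.03, -0.04 and 0.01. Counts over 9 genes are too small to be set apart from these shares, and the genes are described singly.

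**Figure D1:**
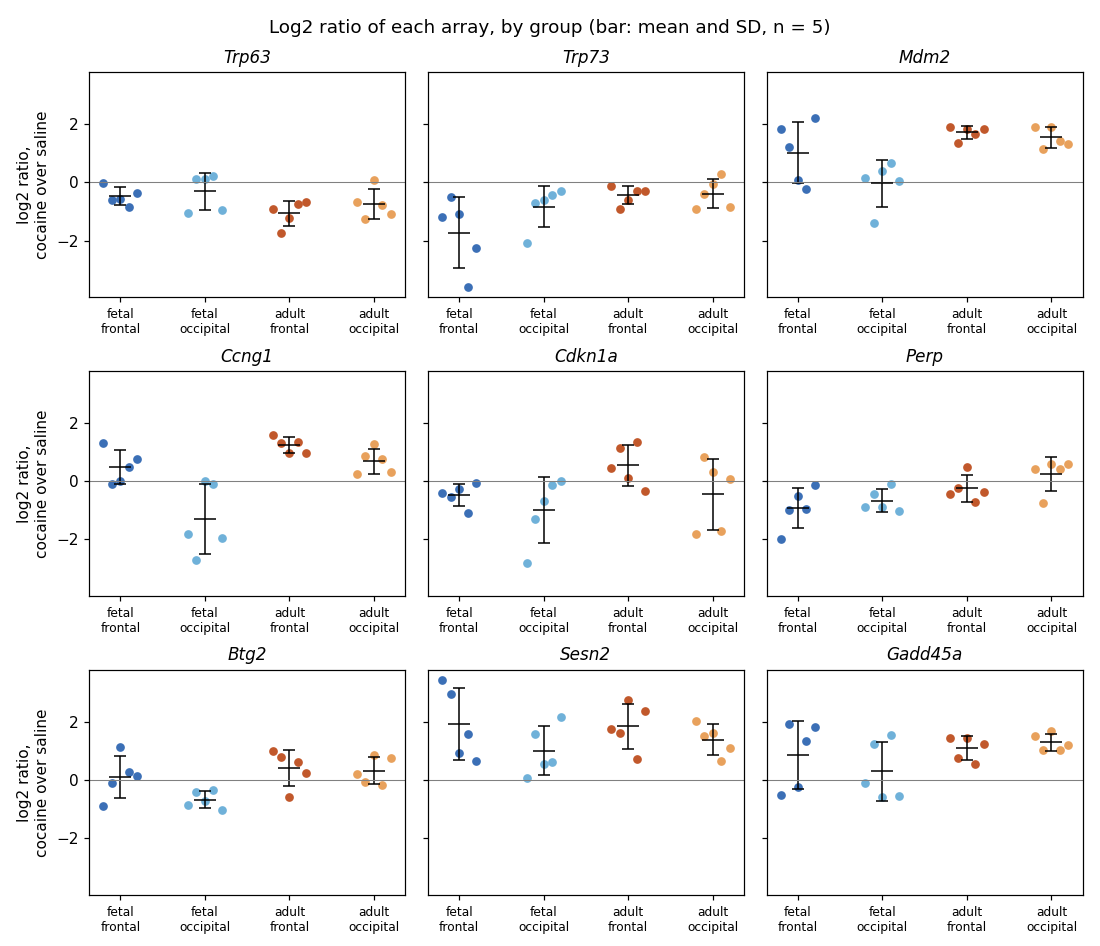
Log2 ratio of cocaine over saline of each of the 9 genes, 1 point per array in the 4 groups, with the group mean and SD (n = 5) in black. Sesn2 lies above 0 on all 20 arrays and Trp73 below 0 on 19 of 20, while Ccng1 and Mdm2 sit higher in both adult groups than in fetal occipital cortex.

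Of the family members, Trp73, the gene of p73, fell in fetal frontal cortex. It lies at chr4:154056249-154139875. Its log2 ratios on fetal frontal arrays 1 to 5 were -1.20, -0.50, -1.08, -3.59 and -2.25. All 5 arrays were below 0 and they spread widely, and replicate 4 holds the lowest value of any of the 9 genes on any array. The SD of these 5 arrays was 1.22, and that of the adult frontal arrays was 0.31. Here and below ± gives the SE of the limma model, which draws on the spread in all 4 groups (n = 5 arrays each). The fetal frontal mean of -1.73 ± 0.33 is a 3.31-fold lower ratio than that of the median probe, with a limma adjusted p of 0.000383. Without replicate 4, the lowest array, the mean was -1.26 and without replicate 2 it was -2.03, and Trp73 still passed.

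In fetal occipital cortex the Trp73 ratios were -2.07 on replicate 1, -0.72 on 1b, -0.61 on 3, -0.45 on 4 and -0.31 on 5. The mean of -0.83 ± 0.33 did not pass (limma adjusted p 0.061), and replicate 1 stood well below the other 4. Adult frontal arrays ran from -0.92 to -0.13 with a median of -0.30, and adult occipital arrays from -0.92 to 0.29 with a median of -0.40. Neither adult mean, -0.45 ± 0.33 and -0.39 ± 0.33, passed (limma adjusted p 0.253 and 0.339). Trp73 was thus below 0 on 19 of 20 arrays, and adult occipital replicate 4 was the exception. The probe has a middling brightness score (percentile 60.9), where the median ratio of all probes in the same decile of the score was 0.20 in fetal frontal cortex and 7.35% of them fell. With the brightness trend removed from each array the fetal frontal mean was -1.81 ± 0.32 (limma adjusted p 0.00254), and with brightness and position trends removed together -1.71 ± 0.29 (limma adjusted p 0.00127).

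Trp63, at chr16:25683763-25892088, encodes p63. Its ratios in adult frontal cortex were -0.92, -1.74, -1.22, -0.75 and -0.69 on arrays 1 to 5, all below 0. The gene fell there, with a mean of -1.06 ± 0.27 (limma adjusted p 0.0014). In adult occipital cortex arrays 1 to 5 read -0.69, -1.27, 0.08, -0.77 and -1.10, so that 4 of 5 were below 0, and the mean of -0.75 ± 0.27 passed (limma adjusted p 0.0227). Leaving out adult occipital replicate 2, 4 or 5 ended that call, with adjusted p of 0.101, 0.0541 and 0.0754. Fetal arrays ran from -0.85 to -0.01 in frontal and from -1.06 to 0.21 in occipital cortex, where the means of -0.48 ± 0.27 and -0.31 ± 0.27 did not pass. Trp63 is a dim probe (brightness percentile 15.5), and 62.7% of the probes in its decile of the score fell in adult frontal cortex and 51.2% in adult occipital cortex. Removing the brightness trend left -0.16 ± 0.24 and -0.05 ± 0.24 in these groups, neither of which passed (limma adjusted p 0.672 and 0.908).

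The feedback regulators came next. Mdm2, the ubiquitin ligase that marks p53 for breakdown and is itself induced by p53, lies at chr10:117688875-117710758. Its adult frontal ratios were 1.88, 1.35, 1.83, 1.67 and 1.84 on arrays 1 to 5. Its adult occipital ratios were 1.91, 1.13, 1.91, 1.42 and 1.31. Every adult array was more than a doubling above the median probe, with a narrow spread. The means were 1.71 ± 0.31 (limma adjusted p 5.81e-05) and 1.54 ± 0.31 (limma adjusted p 0.000587), which are 3.27-fold and 2.9-fold. The fetal arrays scattered more. Fetal frontal arrays 1 to 5 read 1.81, 1.21, 0.09, -0.23 and 2.19, with a mean of 1.01 ± 0.31 that passed (limma adjusted p 0.0122). That call was lost without replicate 1 (0.82, adjusted p 0.0655) and without replicate 5 (0.72, adjusted p 0.0993). Fetal occipital arrays 1, 1b, 3, 4 and 5 read 0.16, -1.41, 0.39, 0.65 and 0.03, with a mean of -0.04 ± 0.31 (limma adjusted p 0.944).

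Ccng1, the cyclin G1 gene and one of the p53 targets that acts back on the Mdm2 loop, lies at chr11:40748552-40755309. Its adult frontal ratios were 1.59, 1.31, 0.98, 1.33 and 0.95, all above 0. The gene rose there by 1.23 ± 0.32 (limma adjusted p 0.00154). Adult occipital arrays read 0.23, 0.86, 1.28, 0.74 and 0.31, again all above 0, with a mean of 0.68 ± 0.32 that did not pass (limma adjusted p 0.0733). In fetal occipital cortex the order turned. Arrays 1, 1b, 3, 4 and 5 read -1.81, -2.70, -0.01, -0.10 and -1.94, and Ccng1 fell by 1.31 ± 0.32 on average (limma adjusted p 0.00407). Replicates 1, 1b and 5 were far below 0 and replicates 3 and 4 near it, so the group is split; without replicates 1 and 1b together the mean was -0.68 (adjusted p 0.19). Fetal frontal arrays ran from -0.11 to 1.30 with a mean of 0.48 ± 0.32 (limma adjusted p 0.229).

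Both regulators sit on bright probes, at percentiles 95.6 for Mdm2 and 75.2 for Ccng1. Among the brightest 10% of probes, which include that of Mdm2, 83.3% of all probes rose in the fetal frontal group, 35.6% in the fetal occipital, 92.7% in the adult frontal and 86.2% in the adult occipital group. With the brightness trend removed Mdm2 stood at -0.20 ± 0.31, -0.71 ± 0.31, 0.27 ± 0.31 and 0.41 ± 0.31 in that order, and none passed. Ccng1 then stood at 0.61 ± 0.32 in adult frontal cortex (adjusted p 0.17) and remained low in fetal occipital cortex, at -1.57 ± 0.32 (limma adjusted p 0.00202). With the position trend removed instead, the fetal occipital value of Ccng1 was -0.34 ± 0.25 (adjusted p 0.355) and that of Mdm2 was 0.84 ± 0.26 (limma adjusted p 0.0353). Position accounted for 19.4% to 45.9% of the variance on the fetal occipital arrays and for up to 20.3% on the fetal frontal ones.

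**Figure D2:**
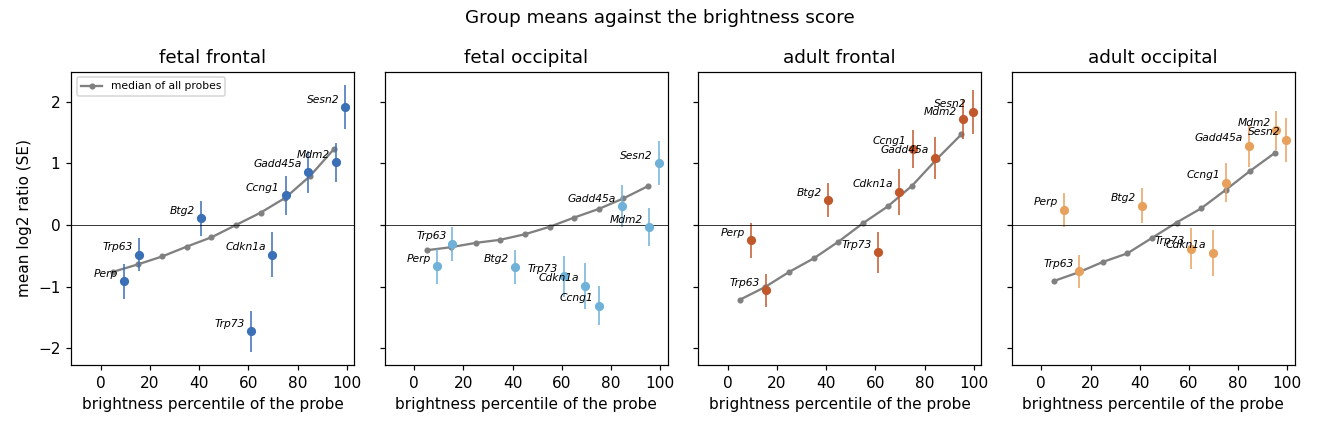
Mean log2 ratio of the 9 genes (coloured points, SE of the limma model) against the brightness percentile of the probe, beside the median of all probes in each decile of the score (grey line), for the 4 groups. In adult frontal cortex the line climbs from -1.21 to 1.47 and Sesn2, Mdm2, Gadd45a and Trp63 lie near it, while Trp73 in fetal frontal and Ccng1 in fetal occipital cortex lie well below it.

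Among targets that act on the cell cycle, Cdkn1a encodes p21, the inhibitor of cyclin-dependent kinases that carries much of the p53 arrest, and lies at chr17:29090979-29100722. Its ratios in fetal occipital cortex were -2.81, -1.32, -0.67, -0.15 and -0.01 on arrays 1, 1b, 3, 4 and 5. All 5 were below 0, but the mean of -0.99 ± 0.37, which passed narrowly (limma adjusted p 0.0472), was -0.54 without replicate 1 (adjusted p 0.29). Leaving out any 1 of 11 of the 20 arrays ended this call. Fetal frontal arrays were also all below 0, from -1.09 to -0.08, and their mean of -0.48 ± 0.37 did not pass (limma adjusted p 0.311). Adult frontal arrays read 0.43, 1.14, 0.11, 1.33 and -0.34. Adult occipital arrays read -1.82, 0.84, 0.32, -1.70 and 0.08. The adult occipital arrays thus split, with 2 far below 0 and 3 above it, and neither adult mean (0.54 ± 0.37 and -0.46 ± 0.37) passed. Cdkn1a did not rise in any of the 4 groups.

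Gadd45a, a growth-arrest and DNA-damage gene at chr6:67035096-67037407, was above 0 on all 10 adult arrays. Adult frontal arrays 1 to 5 read 1.44, 0.75, 1.45, 0.55 and 1.23. Adult occipital arrays read 1.49, 1.04, 1.66, 1.04 and 1.19. The gene rose in both, by 1.09 ± 0.34 (limma adjusted p 0.0075) and 1.28 ± 0.34 (limma adjusted p 0.0033). Fetal arrays fell into high and low values in each region: fetal frontal read -0.52, 1.90, -0.24, 1.33 and 1.82, and fetal occipital -0.11, 1.22, -0.60, 1.55 and -0.54. The fetal frontal mean of 0.86 ± 0.34 passed narrowly (limma adjusted p 0.0456) and was lost without any 1 of 9 of the 20 arrays. It was 0.60 without replicate 2 (adjusted p 0.239), 0.74 without replicate 4 (adjusted p 0.143) and 0.62 without replicate 5 (adjusted p 0.205). The fetal occipital mean was 0.30 ± 0.34. The probe is bright (percentile 84.3), and with the brightness trend removed the adult means were 0.11 ± 0.32 and 0.52 ± 0.32, neither of which passed.

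Btg2, an antiproliferative gene that is also a marker of progenitors that switch to neuron production, lies at chr1:134074865-134079155 and passed in no group. Its fetal occipital arrays were all below 0, from -1.02 to -0.35, with a mean of -0.68 ± 0.28 (limma adjusted p 0.0729). The fetal frontal mean was 0.11 ± 0.28, and the adult means were 0.40 ± 0.28 (frontal) and 0.31 ± 0.28 (occipital). The probe is of middling to low brightness (percentile 40.9), where the median of all probes in the same decile was -0.27 in adult frontal cortex. After removal of the brightness trend Btg2 stood at 0.78 ± 0.26 in that group (limma adjusted p 0.0297).

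Sesn2 encodes sestrin 2, a stress protein that restrains mTORC1 and supports the antioxidant response, and lies at chr4:132492804-132510456. It was above 0 on all 20 arrays. Fetal frontal arrays 1 to 5 read 3.43, 2.95, 0.93, 1.59 and 0.65, and fetal occipital arrays 1, 1b, 3, 4 and 5 read 0.08, 1.59, 0.56, 0.63 and 2.16. Adult frontal arrays read 1.74, 1.61, 2.73, 0.73 and 2.35, and adult occipital arrays 2.04, 1.51, 1.61, 0.65 and 1.09. The groups overlap throughout. Sesn2 rose in all 4, by 1.91 ± 0.36 in fetal frontal cortex, 1.003 ± 0.36 in fetal occipital cortex, 1.83 ± 0.36 in the adult frontal group and 1.38 ± 0.36 in the adult occipital group. The limma adjusted p was 0.000347, 0.0384, 0.000108 and 0.00287. The fetal occipital call was lost without replicate 1b, 4 or 5, with means of 0.86, 1.10 and 0.71.

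The Sesn2 probe has one of the highest brightness scores on the array (percentile 99.5). Without the brightness trend its means were 0.26 ± 0.24, 0.05 ± 0.24, 0.00 ± 0.24 and -0.08 ± 0.24 in the order just given, and none passed. Removal of the position trend alone left it at 2.08, 0.63, 1.85 and 1.26. The group means of Sesn2 thus differed from the trend of probes of its brightness by 0.26 at most. With brightness and position trends removed together they were 0.36, -0.33, -0.09 and -0.29, and none passed.

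Perp, an apoptosis effector of p53 that is also a part of desmosomes, lies at chr10:18845071-18857073. It fell in fetal frontal cortex, where arrays 1 to 5 read -1.98, -1.003, -0.51, -0.95 and -0.14 and the mean was -0.92 ± 0.28 (limma adjusted p 0.0114). Without replicate 1 the mean was -0.65 (adjusted p 0.0879). Fetal occipital arrays were all below 0 too, from -1.04 to -0.10, with a mean of -0.67 ± 0.28 (limma adjusted p 0.0737). In adult frontal cortex 4 of 5 arrays were below 0 and in adult occipital cortex 4 of 5 were above it, with means of -0.25 ± 0.28 and 0.25 ± 0.28. Perp has the dimmest probe of the 9 (percentile 9.4), and its adult means lay above the median of its decile, which was -1.21 and -0.91 in the adult frontal and occipital groups. Once the brightness trend was removed Perp was higher in both adult groups, by 0.78 ± 0.27 (limma adjusted p 0.034) and 1.03 ± 0.27 (limma adjusted p 0.0108), and its fetal frontal value was -0.26 ± 0.27 (adjusted p 0.563).

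**Figure D3:**
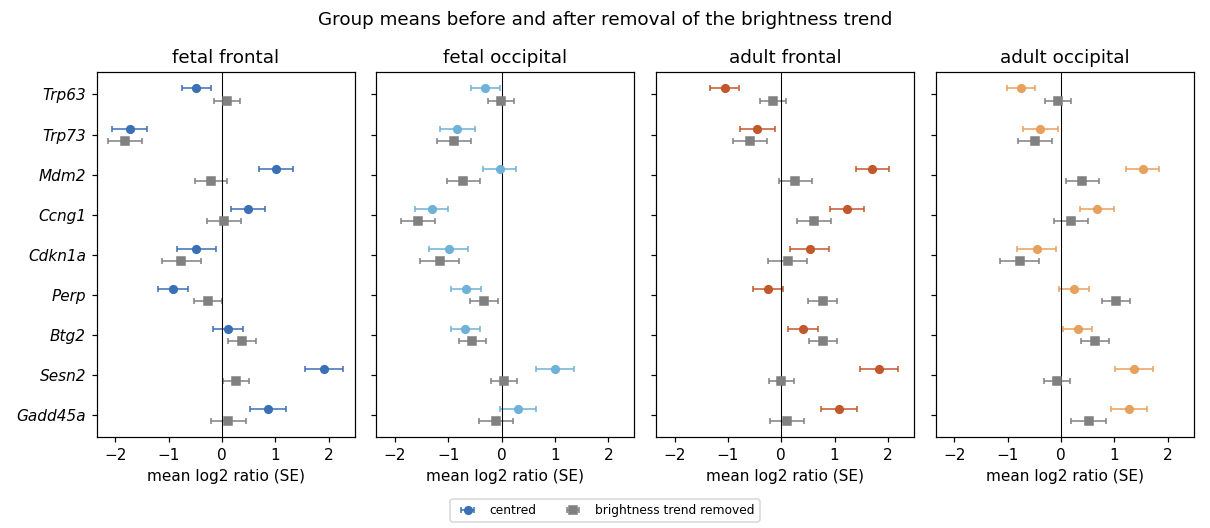
Mean log2 ratio of each gene in the 4 groups with the SE of the limma model. Values are shown as centred (coloured circles) and with the brightness trend of each array removed (grey squares). In both adult groups Sesn2, Mdm2, Gadd45a and Trp63 lie nearer 0 with the trend removed. Mdm2 in fetal occipital cortex moves away from 0, to -0.715, Perp moves up in all 4 groups, and Trp73 in fetal frontal cortex stays at -1.81.

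Removal of the brightness trend therefore changed which of the 9 genes passed. In fetal frontal cortex Trp73 alone was then lower and none was higher, in fetal occipital cortex Ccng1 and Cdkn1a were lower, in adult frontal cortex Perp and Btg2 were higher, and in adult occipital cortex Perp was higher. Among all probes 8.81%, 18.2%, 24.6% and 16.7% then passed in either direction, against 37%, 24.7%, 56.1% and 48.2% before. With the position trend removed Cdkn1a in fetal occipital cortex stood at -0.37 ± 0.31 (limma adjusted p 0.42), and with both trends removed at -0.56 ± 0.30 (limma adjusted p 0.261). With both removed Perp (0.765 and 0.875) and Btg2 (0.657 and 0.719) were higher in adult frontal and adult occipital cortex. Of all probes 29.2% and 20.1% passed in these groups with both removed. Fetal frontal Trp73 was the one call among those of the 4 groups that held both as centred and with the 2 trends removed together. It did not hold when fetal frontal replicate 1, whose channel 1 lists both dyes, was turned in sign (-1.25, adjusted p 0.114).

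The 4 groups were next set against each other, to ask whether the ratio of cocaine over saline depended on region or age. Between fetal regions none of the 9 genes passed in limma and 2 had an unadjusted p under 0.05. Of all probes 0% were higher and 0.0222% lower in occipital cortex, and 3504 had an unadjusted p under 0.05. Ccng1 came nearest, at 1.80 log2 units lower in occipital than in frontal cortex (difference -1.80 ± 0.45, limma adjusted p 0.0902, 95% interval -2.70 to -0.89). The other was Mdm2 (difference -1.05 ± 0.44, limma adjusted p 0.249). The groups overlapped narrowly for Ccng1, since fetal occipital replicates 3 (-0.01) and 4 (-0.10) lay just above fetal frontal replicate 2 (-0.11). Without fetal occipital replicate 3 the difference was -2.12 (limma adjusted p 0.0499).

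Between adult regions none of the genes passed in limma and 0 of 9 had an unadjusted p under 0.05. Of all probes 0% were higher and 0% lower, and 611 had an unadjusted p under 0.05. The widest interval was that of Cdkn1a, with a difference of occipital minus frontal of -0.99 ± 0.52 and a 95% interval from -2.05 to 0.07. For Mdm2 the difference was -0.18 ± 0.44 with an interval from -1.07 to 0.72. Between ages in frontal cortex no gene passed in limma, and Trp73 alone had an unadjusted p under 0.05, with a difference of adult minus fetal of 1.28 ± 0.46 (limma adjusted p 0.228), as had 3171 of all probes. There 0.00443% of all probes were higher in adult and 0.0222% lower.

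Between ages in occipital cortex Mdm2 and Ccng1 were higher in adult cortex, where 2.51% of all probes were higher and 1.09% lower. The Ccng1 difference was 1.99 ± 0.45 (limma adjusted p 0.0204), and every adult occipital array, from 0.23 upward, lay above every fetal occipital array, none of which exceeded -0.01. The Mdm2 difference was 1.57 ± 0.44 (limma adjusted p 0.0436), and its lowest adult array, 1.13, lay above its highest fetal array, 0.65. The remaining 7 genes did not pass; Perp (0.92 ± 0.39), Btg2 (0.99 ± 0.40) and Gadd45a (0.98 ± 0.48) had an unadjusted p under 0.05. The Ccng1 call was lost without adult occipital replicate 3 (1.85, adjusted p 0.0855) and the Mdm2 call without any 1 of 8 arrays, namely each of the 5 adult occipital arrays, fetal occipital replicate 1 or 1b, or adult frontal replicate 1. The Mdm2 difference was 1.23 without fetal occipital replicate 1b (adjusted p 0.0946) and the highest adjusted p was 0.117. With the position trend removed the differences were 1.10 ± 0.36 for Ccng1 (adjusted p 0.0807) and 0.57 ± 0.37 for Mdm2 (adjusted p 0.35). With the brightness trend removed they were 1.76 ± 0.45 (limma adjusted p 0.0346) and 1.12 ± 0.43 (adjusted p 0.128).

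Mdm2 and Ccng1 also followed each other across arrays. As a description over 20 arrays, which share array-wide trends, the Pearson coefficient of their ratios was 0.81, the highest of the 36 pairs of the 9 genes. It was 0.57 within groups, that is after each group mean was taken off, and 0.32 with the brightness and position trends removed. Perp and Gadd45a, a dim and a bright probe, had 0.59, and 0.55 with the trends removed. By the same measure over 18198 probes with 1 symbol and values on all arrays, the probes most like Cdkn1a were those of Tmem65 (0.88), H2-D1 (0.85) and Brsk2 (0.82), and those most like Trp73 were of Adarb2 (0.86), Lmnb2 (0.83) and Armc9 (0.83).

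The wider p53 pathway was read from 6 lists of other genes, 88 in all, of which 78 had a probe. A gene counts as higher or lower where at least 1 of its probes passed and none passed the other way, and the same rule gives the shares over all 16504 genes. In fetal frontal cortex 13 of the 78 genes rose and 16 fell, where 20.7% of all genes were higher and 16.5% lower. In fetal occipital cortex 5 rose, 11 fell and 1, Rrm2b, had probes that passed in opposite directions, against 11.5% and 13.5% of all genes. Among adult frontal arrays 21 rose, 20 fell and 1, Mapk8, had disagreeing probes, against 29.1% and 25.9%. In adult occipital cortex 19 rose and 18 fell, against 26.3% and 20.9%. The median log2 ratios of the lists were 0.11, -0.06, -0.05 and 0.00. Counts as near the shares of all genes as these set nothing apart. The smaller lists that follow are read against the same shares. Some of their counts lie further from them, but all are too small to be set apart from these shares.

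With the brightness trend removed 3 pathway genes were higher and 3 lower in fetal frontal cortex, where 4.02% of all genes were then higher and 4.85% lower. In fetal occipital cortex 3 were higher and 9 lower against 7.08% and 11.5%, in adult frontal cortex 16 and 10 against 11.4% and 12.2%, and in adult occipital cortex 7 and 5 against 9.43% and 7%. Apart from Mdm4, Sesn1 and the genes of the occipital age difference, each gene named from these lists was, in a group, among the 3 of its list that passed with the smallest p. Some values of such a gene in other groups or on other probes are given beside these.

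**Figure D4:**
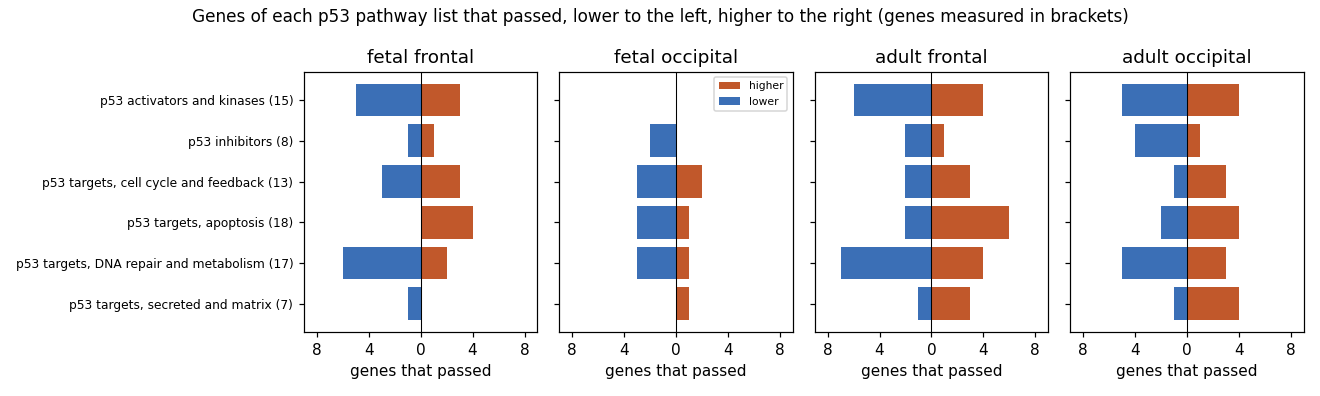
Number of genes of each p53 pathway list that rose (right, orange) or fell (left, blue) in each of the 4 groups, as centred; the number of genes measured is given in brackets. Every list holds genes that passed in both adult groups and in both directions, and no activator passed in fetal occipital cortex.

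Of 15 activators of p53, 3 rose and 5 fell in fetal frontal cortex, 4 rose and 6 fell in adult frontal and 4 rose and 5 fell in adult occipital cortex. After removal of the brightness trend these became 1 higher and 0 lower, 4 and 1, and 2 and 1. Trp53bp1, which binds broken chromatin, rose by 1.21 ± 0.33 in fetal frontal cortex, on 5 of 5 arrays. Of the kinase gene Mapk8 1 probe rose there by 1.42 ± 0.39 and the other stood at -0.29 ± 0.28, and of the acetyltransferase gene Crebbp 1 probe rose by 1.06 ± 0.30 and the other stood at 0.39 ± 0.34 (limma adjusted p 0.383). None of these 3 rises passed with the brightness trend removed (limma adjusted p 0.0987 to 0.175). In adult frontal cortex Ep300, the other acetyltransferase of p53, stood at -1.83 ± 0.32, the checkpoint kinase gene Chek2 at -1.65 ± 0.32 and Prkdc, the catalytic subunit of DNA-dependent protein kinase, at -1.41 ± 0.28. In the adult occipital group Prkdc (-1.31 ± 0.28) and 2 probes of Ep300 (-1.24 ± 0.32 and -1.37 ± 0.36) fell as well. Limma adjusted p of the calls named here ran from 4.05e-05 to 0.00709. Those that rose have brightness percentiles from 72.9 to 81.1 and those that fell from 11.3 to 37.3. The fall of Ep300 held with the trend removed in adult frontal cortex (-1.37, limma adjusted p 0.00122) and on 1 of the 2 probes in adult occipital cortex (-0.85, limma adjusted p 0.0386), and those of Chek2 and Prkdc did not pass.

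Of 8 inhibitors other than Mdm2, 1 rose and 1 fell in fetal frontal cortex and 0 rose and 2 fell in fetal occipital cortex. In adult frontal cortex 1 rose and 2 fell, and in adult occipital cortex 1 rose and 4 fell. With the brightness trend removed 1 was higher and 0 lower, 0 and 1, 2 and 1, and 1 and 0 in that order. Ppm1d, the phosphatase Wip1 that switches p53 off, rose by 1.31 ± 0.27 in fetal frontal cortex (limma adjusted p 0.000707), which was 0.77 with the brightness trend removed (limma adjusted p 0.0337). Its rises of 0.63 ± 0.27 and 0.89 ± 0.27 in adult frontal and occipital cortex (limma adjusted p 0.0487 and 0.00877) did not pass without that trend (-0.12 and 0.31). The deacetylase gene Sirt1 stood at -1.02 ± 0.28 in fetal frontal cortex, -1.69 ± 0.28 in the adult frontal group and -1.03 ± 0.28 in the adult occipital group. It passed in all 3, below 0 on 5 of 5 arrays each. Its probe is dim (percentile 23), and with the brightness trend removed it passed in adult frontal cortex (-0.93, limma adjusted p 0.00859) and not in the fetal frontal (-0.53) or adult occipital group (-0.44). Rchy1, the ubiquitin ligase Pirh2, fell in fetal occipital cortex with a mean of -1.86 ± 0.46 (limma adjusted p 0.0046) that includes 1 array at -5.31. Trim24 fell in both adult regions (-1.12 ± 0.35 and -1.19 ± 0.35), which did not pass with the brightness trend removed (limma adjusted p 0.0812 and 0.0584). Mdm4 did not pass in any group on either of its probes.

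Among 13 other targets for the cell cycle and feedback, 3 rose and 3 fell in fetal frontal cortex, 2 rose and 3 fell in fetal occipital, 3 rose and 2 fell in adult frontal and 3 rose and 1 fell in adult occipital cortex. Gpc1, a glypican gene, rose in all 4 groups by 1.70 ± 0.30, 1.33 ± 0.30, 1.79 ± 0.30 and 1.44 ± 0.30, and Gtse1, a mitotic gene that restrains p53, fell in all 4, with means of -1.39 ± 0.34, -1.67 ± 0.34, -2.48 ± 0.34 and -1.38 ± 0.34. Their brightness percentiles are 86.7 and 9. Gpc1 passed without the brightness trend in the fetal groups and in adult frontal cortex (0.87, 0.87 and 0.73) and Gtse1 in fetal occipital and adult frontal cortex (-1.33 and -1.44). Gadd45b, the relative of Gadd45a, fell in fetal frontal cortex with a mean of -2.01 ± 0.38, and with the brightness trend removed it stood at -1.39 (limma adjusted p 0.018). Tob1, a relative of Btg2, rose by 1.51 ± 0.32 and 1.21 ± 0.32 in the adult frontal and occipital groups, and without the brightness trend the first of these passed (0.91, limma adjusted p 0.04). Ccng2, the relative of Ccng1, fell in fetal occipital cortex, with a mean of -1.07 ± 0.31 (limma adjusted p 0.0135), which was -1.39 with the brightness trend removed (limma adjusted p 0.0035).

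Of 18 apoptosis targets, 4 rose in fetal frontal cortex, 1 rose and 3 fell in fetal occipital, 6 rose and 2 fell in adult frontal, and 4 rose and 2 fell in adult occipital cortex. Once the brightness trend was removed 0 passed in fetal frontal cortex, 1 was higher and 4 lower in fetal occipital, 3 and 3 in adult frontal, and 1 and 1 in adult occipital cortex. Siva1, a proapoptotic gene, rose in all 4 groups by 1.35 ± 0.27, 1.54 ± 0.27, 1.93 ± 0.27 and 1.73 ± 0.27, on 5 of 5 arrays in each. It is a bright probe (percentile 95.3), and without the brightness trend it stood at 0.15, 0.87, 0.51 and 0.62 and passed in fetal occipital cortex alone (limma adjusted p 0.00817). Tnfrsf10b, a death receptor gene, rose by 1.01 ± 0.27 in fetal frontal cortex, 1.11 ± 0.27 in the adult frontal group and 1.08 ± 0.27 in the adult occipital group. None of these passed without the brightness trend (0.55, 0.46 and 0.58). Aen (-1.61 ± 0.37) and Apaf1, the core of the apoptosome (-0.88 ± 0.28), fell in fetal occipital cortex, and both passed with the brightness trend removed (-1.64 and -1.01). Pmaip1, the BH3 gene of Noxa, fell in adult frontal cortex with a mean of -1.81 ± 0.32, and so did Pidd1 with -1.46 ± 0.28; these were -0.87 and -1.42 with the brightness trend removed and passed.

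Among 17 targets for DNA repair and metabolism 2 rose and 6 fell in fetal frontal, 1 rose and 3 fell in fetal occipital, 4 rose and 7 fell in adult frontal, and 3 rose and 5 fell in adult occipital cortex. Without that trend 0 were higher and 2 lower, 0 and 1, 1 and 3, and 1 and 2 in that order. One probe of Rrm2b, the p53-inducible subunit of ribonucleotide reductase, fell in all 4 groups, with means of -2.01 ± 0.37, -2.03 ± 0.37, -2.48 ± 0.37 and -1.80 ± 0.37. Another of its 3 probes rose by 0.85 ± 0.27 in fetal occipital cortex, so that no direction is given for the gene. Dram1, a lysosomal autophagy gene, fell in both adult groups, with means of -2.59 ± 0.36 and -2.07 ± 0.36, which were -2.40 and -1.90 with the brightness trend removed and passed. Of the relatives of Sesn2, a probe of Sesn1 rose in adult frontal cortex (1.15 ± 0.30, limma adjusted p 0.00197) and another of Sesn1 did not pass (-0.04 ± 0.29); both were named after their values were seen, as relatives of a gene described above. Without the brightness trend the first stood at -0.27 and did not pass, and the second was lower, at -0.87 (limma adjusted p 0.0286).

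Of 7 targets that are secreted or act on the matrix, 1 fell in fetal frontal and 1 rose in fetal occipital cortex, 3 rose and 1 fell in adult frontal and 4 rose and 1 fell in adult occipital cortex. Once the trend was removed 0 passed, 1 was lower, 3 were higher, and 1 was higher and 1 lower. Adgrb1, a brain angiogenesis inhibitor, rose by 1.64 ± 0.31 in adult frontal and 1.01 ± 0.31 in adult occipital tissue, and without the brightness trend the first passed (1.23, limma adjusted p 0.00423). Serpinb5, the gene of maspin, fell in fetal frontal and both adult groups with means of -0.82 ± 0.28, -1.79 ± 0.28 and -1.45 ± 0.28. Its probe is among the dimmest (percentile 4.8), and without the brightness trend the means were -0.10, -0.65 and -0.59, none of which passed.

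In the age difference of occipital cortex 4 genes of the lists were higher in adult cortex, named after their values were seen: Bbc3, the BH3 gene of Puma (1.61 ± 0.44), Cx3cl1 (1.43 ± 0.39), Ndrg1 (1.44 ± 0.41) and Tob1 (1.55 ± 0.45). The 2 that were lower were Pias1 (-1.61 ± 0.47) and Pidd1 (-1.54 ± 0.40). Limma adjusted p of these 6 ran from 0.0345 to 0.0473, and with the brightness trend removed Cx3cl1, Ndrg1 and Pidd1 passed.

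Markers of the cell types that cortex holds moved in the same groups, and their counts are to be read against the shares of all genes given above. In adult frontal cortex 8 of 12 neuronal, 7 of 9 oligodendrocyte and 6 of 8 astrocyte marker genes rose and none of these fell, and of 5 red blood cell genes 4 fell and 1 rose. Without the brightness trend 5, 3 and 7 of these neuronal, oligodendrocyte and astrocyte markers were higher and 2 of the red blood cell genes lower. In adult occipital cortex 7 of 12, 7 of 9 and 5 of 8 were higher and, of the red blood cell genes, 3 of 5 lower and 1 higher; with the brightness trend removed 4, 1 and 3 were higher and 0 of the red blood cell genes lower. In fetal frontal cortex 2 of 12 neuronal markers rose and 1 fell, and 5 of 9 oligodendrocyte markers rose and 1 fell; with the brightness trend removed 1 and 3, and 1 and 1, were higher and lower. In fetal occipital cortex 4 of 11 markers of radial glia and dividing progenitors fell and 0 rose, with a median log2 ratio of -0.57. With the brightness trend removed 3 were lower. Of 11 blood vessel and meninges markers 3 fell and 0 rose there, and of 8 astrocyte markers 2 fell and 0 rose. Neuronal markers had 2 higher and 2 lower, oligodendrocyte markers 1 and 1, and microglial and macrophage markers 1 and 0. Of the 11 progenitor markers 1 was higher and 3 lower in adult frontal and 0 and 3 in adult occipital cortex. Of all genes 25.9% and 20.9% were lower in these groups. The median log2 ratio of the progenitor markers was -0.29 and 0.13. With the brightness trend removed 1 was lower in each adult group. The part of cell composition in the ratios of the p53 genes was not tested.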

How the data were processed

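The deposited table holds, per its values, 1 log2 ratio per probe and array; per the labels, cocaine RNA (channel 1) and saline RNA (channel 2), 5 µg each, were labelled by 3DNA reagents. What the authors did to scan, background-correct and normalize is not given in the sources used here. The log base was read from the data. Once 1 constant per array is taken off, 95.8% of 565 ratios of 82 spots are quotients of whole numbers no larger than 20. That holds for 9.7% of ratios drawn at random. The 82 spots, taken as dim, read exactly 0 or the array maximum on at least 8 arrays. The constant was picked to give small whole numbers and the random ratios had none fitted, so the 2 shares are not on equal terms. Only base 2 was scored. Array maxima (6 to 27 values per array) were treated as missing, and 1368 exact 0 values among 451500 were kept. Arrays were centred on their median, and the 22567 probes with at least 3 values in each group were fitted in limma 3.58.1 (R 4.3.3). This was 1 model of 4 group means with two-sided moderated tests and Benjamini-Hochberg adjustment over all probes. The model was also run on simulated arrays with independent noise and no brightness or position trend. That run cannot show how the calls fare under these trends. The depth of signal over background is unknown, and the number of arrays limits the precision. The brightness score is the mean log2 of the smallest larger whole number, up to 400, that gives a ratio within 0.001. Loess trends on this score (span 0.3) or on position (span 0.05) were removed as alternatives, the pair together having been added after seeing the data. Position was inferred from the probe number in 105 rows of 215 spots, a layout settled from the values. Ratios 215 probes apart had a mean correlation of 0.17, and those 105 apart 0.049. Other alternatives were centring, scaling, quantile normalization, filters, exact 0 as missing, the sign of fetal frontal replicate 1, array weights, robust regression, own arrays only, a replicate block, averaged probes and arrays left out. Probes were named from the platform annotation (18218 with 1 symbol, 16 with several, 4341 with none), checked against RefSeq. All probes of the set are named, up to 3 of each pathway list per group by smallest p, and the 3 probes most like Cdkn1a and Trp73. Mdm4, Sesn1 and the pathway genes of the occipital age difference were named outside this rule. The genes and lists were chosen with earlier results of these data known.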

Additional observations from a re-analysis of the deposited data

Results flagged for a closer look

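Trp73 on fetal occipital replicate 1 stood apart from the other arrays of its group, with a log2 ratio of -2.07 against -0.72 to -0.31 on the other four. Perp on adult occipital replicate 2 stood apart as well, at -0.76 against 0.42 to 0.59. These are 2 of 36 gene and group sets of 5 arrays examined for a lone extreme value, and chance alone gives about 1 in 20. On fetal occipital replicate 1 the correlation of ratio with brightness was the weakest of all arrays (0.0264) and on adult occipital replicate 2 the strongest (0.700); their part in these values was not tested.

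Mdm2 and Ccng1 differed between ages in occipital cortex, with adult minus fetal differences of 1.57 ± 0.44 and 1.99 ± 0.45 in the limma model (adjusted p 0.0436 and 0.0204). With the position trend removed neither passed.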

How the results depend on the processing

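Counts are of the 9 genes that passed, as centred 5, 3, 5 and 4 (fetal frontal, fetal occipital, adult frontal, adult occipital cortex) and 2 in the occipital age difference. Under 36 alternatives 35 kept the fetal frontal fall of Trp73. Of these alternatives 20 left out 1 array, and leaving out an array of another group cannot change the fetal frontal mean. Averaging the probes of a gene cannot change it either, since Trp73 has 1 probe. The count of 35 is therefore not a count of independent checks. In fetal frontal cortex 3 passed with its own arrays only and 0 with replicate 1 turned in sign, where 9 of all probes passed against 8359. The fetal occipital count was 6 with scaling and with quantile normalization, 5 with robust regression, 1 with replicate 1 of fetal frontal cortex turned, and 0 with array weights, with own arrays only and without replicates 1 and 1b together; all probes with own arrays only numbered 1743 against 5576, and 3646 without 1 and 1b. The fetal region difference had 1 with scaling, quantile normalization and robust regression. The occipital age difference had 5 with robust regression, 1 with scaling or the turned array, and 0 without replicates 1 and 1b. With the replicate block 1 passed in fetal occipital cortex and 1 in the occipital age difference. Deviations of arrays with the same title number had correlations from -0.132 to 0.376, above 0.1 in 7 of 27 pairs. Arrays of different numbers were not compared in this way, so whether title numbers pair arrays was not tested. Leaving out 1 array gave 3 to 5 genes in fetal frontal, 1 to 4 in fetal occipital cortex, 0 to 1 in the fetal region difference and 0 to 2 in the occipital age difference.

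With the brightness trend removed 1 passed in fetal frontal cortex, and 2 and 1 in the adult frontal and occipital groups, where all probes called numbered 1988 against 8359, 5543 against 12664 and 3770 against 10882. Of the genes that had passed, Mdm2 in fetal frontal (-0.205) and Sesn2 in adult occipital cortex (-0.079) turned in sign, and Perp in adult frontal cortex, which had not passed at -0.25, became 0.775 and passed. With the position trend removed 1 passed in fetal occipital cortex (all probes 3089) and 0 in the occipital age difference. With both removed 1, 0, 2 and 2 passed in the 4 groups and 0 in the occipital age difference, and all probes numbered 2735, 1736, 6582 and 4542. Of the genes that had passed, those then turned in sign were Mdm2 (-0.014) and Gadd45a (-0.103) in fetal frontal, Sesn2 in fetal occipital (-0.331), in the adult frontal group Sesn2 (-0.093) and Gadd45a (-0.028), and in the adult occipital group Trp63 (0.132) and Sesn2 (-0.286). The cause of these changes was not tested. Signal over background is unknown for every probe.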
